A study of Camelus dromedarius with 10 samples.

Results

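NFAT5 and 9 kinases that respond to osmotic or salt stress were followed in the supraoptic nucleus (SON) of dromedary camels, the hypothalamic nucleus whose magnocellular neurones (MCNs) make vasopressin and oxytocin. The 10 genes were taken by name: the transcription factor NFAT5, the with-no-lysine kinases WNK1, WNK2, WNK3 and WNK4, the serum and glucocorticoid regulated kinases SGK1, SGK2 and SGK3, and the kinases OXSR1 (OSR1) and STK39 (SPAK). The rule is a list of names and uses no measured value, although it was drawn up with earlier results of these data known. The count table names genes by Ensembl ID only, and symbols were taken from the supplementary gene lists of the study. Through its complete lists, each of the 10 names was paired with 1 of the 22444 IDs, and all 10 passed the filter on low counts. The counts behind them ranged from 241 over all libraries for SGK2 to 25784 for WNK1.

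NFAT5 is the Rel-homology transcription factor of the hypertonic response and drives genes that let cells take up or make organic osmolytes. WNK kinases sense chloride and cell shrinkage and phosphorylate OXSR1 and STK39, which in turn phosphorylate the cation-chloride cotransporters that set cell volume and neuronal chloride. SGK kinases act downstream of PI3K and mTORC2, and SGK1 is a transcriptional target of corticosteroids and of hypertonicity. MCNs are themselves osmosensitive, and their release of vasopressin is the main hormonal defence of water balance.

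The question was whether the RNA of these genes differed after a long period without water. RNA came from the rostral SON, taken from 1 side of the brain, of male camels aged 4 to 5 years that were housed on a ranch and had food throughout. The 5 control camels had free access to water and the 5 water deprived (WD) camels had none for 20 days. Each library came from 1 camel and is named by its group and camel number (CON2, CON3, CON4, CON5 and CON13; WD6, WD7, WD8, WD9 and WD15). The SON was punched out by position, so each library holds MCNs together with glia and vessel cells, and in such bulk RNA fewer cells of a type cannot be told apart from less RNA per cell.

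Depth differed between libraries. Totals ranged from 1665098 to 8126641 counts, and 5 gene IDs, each over 1% of a library, took between 27.7% and 76.1% of them. Outside these 5 IDs, CON13 held 397495 counts and WD6 1106575, against 2078393 to 5872137 in the other 8 libraries, so 1 read was worth 1.20 CPM (counts scaled to the normalized size of the library) in CON13, 0.475 in WD6 and at most 0.237 elsewhere. Of the cell type lists, the summed level of 8 microglial markers was 216 to 353 CPM in controls and 266 to 785 CPM in WD, with 5 of 8 at an unadjusted edgeR p under 0.05, against 9.31% of all genes tested, and none past the threshold. Of the 6 microglial markers paired only through a list of genes cut off by p in these samples, C1QA rose (log2 fold change 1.63, SE 0.32, edgeR adjusted p = 0.0232), and its groups did not overlap, while C1QB had a log2 fold change of 1.35 (SE 0.31, edgeR adjusted p = 0.0707). The sums of 10 endothelial markers (270 to 451 and 277 to 559 CPM), 6 oligodendrocyte markers (109 to 293 and 109 to 239 CPM) and 2 astrocyte markers (27.5 to 41.8 and 32.01 to 46.6 CPM) overlapped. Of the 9 endothelial markers tested, 2 had an unadjusted edgeR p under 0.05 and none passed (FLT1 at a log2 fold change of 0.62 and KDR at 0.64). Of the 2 astrocyte markers, NFIA was tested (log2 fold change 0.23, edgeR adjusted p = 0.784). EMX2, with 55 counts in all, was below the filter, with a mean of 2.98 CPM in controls and 0.738 CPM in WD. Another 3, paired only through the list cut off by p, were fitted above 0 without passing: ALDOC at 0.59, whose groups did not overlap, ALDH1L1 at 0.55 and GJA1 at 0.50. The 9 MCN markers that could be paired summed to 722 to 1052 CPM in controls and 1837 to 3479 CPM in WD, and of 7 tested, 3 (VGF, PCSK1 and PDYN) rose and carried the difference in the sum. The other 4 did not pass and were fitted below 0: OTP at -0.58 (edgeR adjusted p = 0.454), CREB3L1 at -0.27, SIM1 at -0.044 and ARNT2 at -0.027, so that the median log2 fold change of the 7 was -0.027. SCG2, paired only through the list cut off by p, rose (log2 fold change 1.48, edgeR adjusted p = 0.0213). VIP, a marker of the neighbouring suprachiasmatic nucleus, lay between 0 and 2.39 CPM. No ID was found for AVP or OXT, which are not analysed here. What part these differences had in the values below was not tested.

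None of the 10 genes changed past the threshold. With edgeR's quasi-likelihood test, adjusted over 14432 genes at a threshold of 0.05, 0 of 10 passed, while 0.499% of all genes tested did. At an unadjusted p under 0.05 there was 1 of 10, WNK2, against 9.31% of all genes. DESeq2's Wald test also gave 0 of 10 past its adjusted threshold (1.27% of all genes) and 1 of 10, again WNK2, at an unadjusted p under 0.05 (8.83% of all genes). No member had groups that did not overlap in CPM, against 2.62% of all genes. The half-width of the 95% interval of the log2 fold change had a median of 0.49 over the 10 genes and 0.55 over all genes tested. These intervals are not adjusted for the number of genes, and a change had to be larger than this to pass the adjusted threshold in most genes. In simulated counts, the test recovered 47% of 200 genes given a log2 change of 1. It recovered 100% of 200 genes given a log2 change of 2. Failing to pass the threshold therefore does not by itself show that a gene was unchanged.

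**Figure D1:**
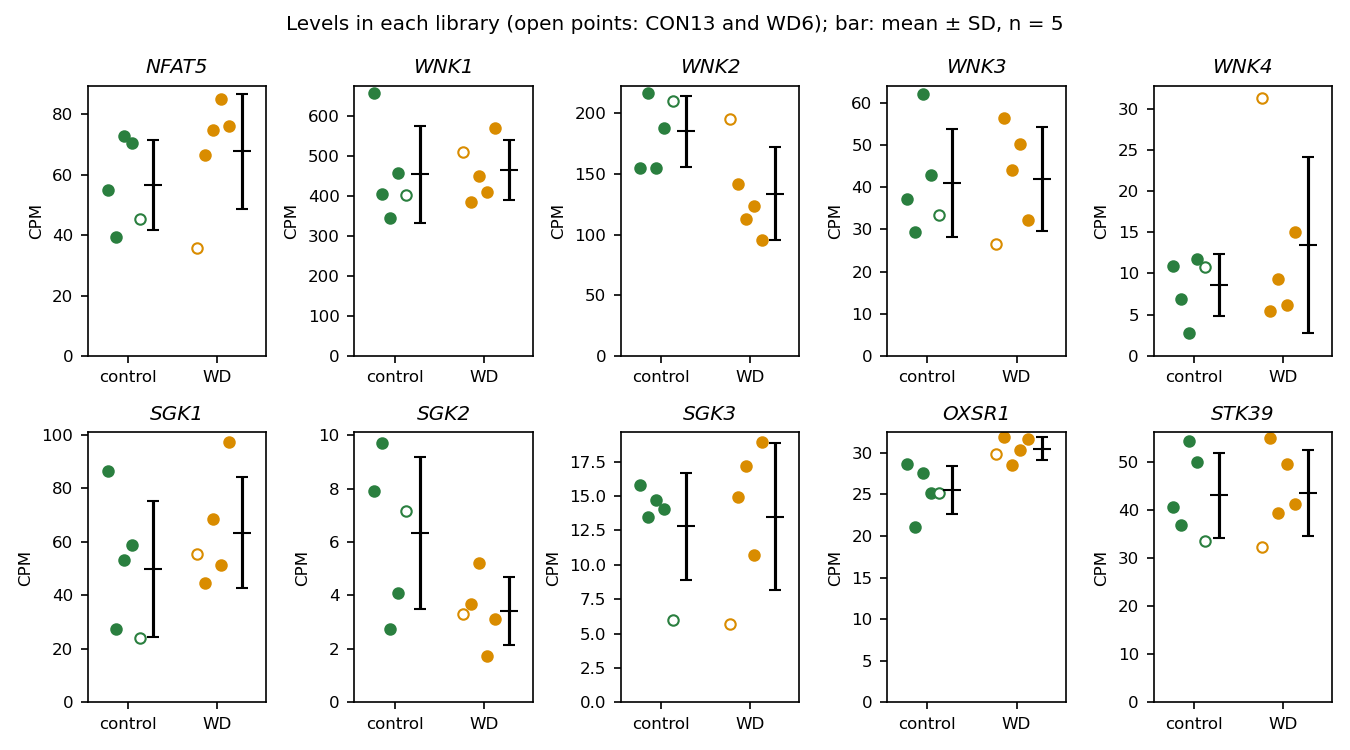
Normalized level (CPM, linear axis from 0) of each of the 10 genes in each library, with controls in green, WD in orange, the 2 shallowest libraries CON13 and WD6 as open points, and the mean ± SD of each group (n = 5) as a bar. In every panel at least 1 control lies within the WD range, and the groups come closest to separating for OXSR1, where the overlap is CON2 at 28.60 and WD8 at 28.58 CPM, and for WNK2, where WD6 alone lies among the controls.

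NFAT5 (ENSCDRG00005019020) was present in every library. Its level was 55.1, 39.5, 72.9, 70.4 and 45.4 CPM in CON2, CON3, CON4, CON5 and CON13, and 35.6, 66.7, 75.0, 85.1 and 76.3 CPM in WD6, WD7, WD8, WD9 and WD15. The lowest of the 10 values belonged to a WD camel, WD6, whereas the other 4 WD libraries lay above the control median. The group means were 56.7 ± 14.8 and 67.7 ± 19.1 CPM (SD, n = 5 each). The log2 fold change in WD was 0.25 (SE 0.23, 95% interval -0.23 to 0.73), with an edgeR adjusted p of 0.801, and leaving out 1 library at a time gave values from 0.12 (without CON3, adjusted p = 0.986) to 0.40 (without WD6, adjusted p = 0.372). It was 0.15 without WD9. With all libraries, the upper bound of the interval corresponds to a 1.66-fold higher level.

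The 9 other factors with the Rel-homology domain, the calcineurin-regulated NFATs and the NF-κB subunits, were all paired and tested. None passed the threshold. The fitted change was above 0 for 8 and below 0 for 1, with a median log2 fold change of 0.22 against 0.017 for all genes tested. NFATC2, a factor of activated T cells that is also found in brain, had the smallest p, with 11.5 ± 3.66 CPM in controls and 17.7 ± 7.27 CPM in WD (log2 fold change 0.55, SE 0.29, edgeR adjusted p = 0.599). Its value was 0.30 without WD15. NFKB2, the precursor of the p52 subunit of NF-κB, came next at 9.63 ± 3.85 and 13.4 ± 4.32 CPM (log2 fold change 0.46, SE 0.31, edgeR adjusted p = 0.695), with values from 0.30 without CON4 to 0.72 without CON3. The microglial marker sum, given above, was also higher in most WD libraries, and its part in these values was not tested.

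Enzymes known to act on NFAT5 under hypertonic conditions did not pass either. Of 13 paired and tested, 7 had a fitted change above 0 and 6 below, with a median log2 fold change of 0.00092. MAP2K3, which activates p38 as MAP2K6 does, lay between 21.7 and 27.9 CPM in controls and between 28.6 and 50.3 CPM in WD, and its groups did not overlap. Its log2 fold change was 0.50 (SE 0.19, edgeR unadjusted p = 0.0185, adjusted p = 0.407). MAP2K6 was fitted the other way, with 7.88 ± 2.63 CPM in controls and 5.26 ± 0.868 CPM in WD (log2 fold change -0.47, SE 0.30, edgeR adjusted p = 0.683), and MAPK14, p38 itself, had a log2 fold change of -0.17 (SE 0.20, edgeR adjusted p = 0.854). PRKACA, the catalytic subunit of protein kinase A, was 57.1 ± 7.99 CPM in controls and 43.4 ± 7.78 CPM in WD, with a log2 fold change of -0.38 (SE 0.18, edgeR adjusted p = 0.524).

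Few textbook targets of NFAT5 could be read. Of 12 listed, 4 were paired through a complete source of symbols, and of these AKR1B1 alone was tested. AKR1B1, the aldose reductase that makes sorbitol, was 35.7 ± 7.58 CPM in controls and 43.3 ± 4.08 CPM in WD. All 5 WD libraries lay above the control median, although the groups overlapped, and the log2 fold change was 0.27 (SE 0.18, edgeR adjusted p = 0.699), or 0.17 without CON2. CCL2, TNF and LTB had 64, 48 and 61 counts over all libraries and were below the filter.

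SLC38A2, the amino acid transporter SNAT2 that hypertonicity induces in many cells, was the 1 listed NFAT5 target past the threshold. It was 109 ± 31.9 CPM in controls (80.4 to 150.5) and 232 ± 61.0 CPM in WD (148.5 to 310.7), so that it rose 2.12-fold (log2 fold change 1.08, SE 0.22, 95% interval 0.61 to 1.55, edgeR adjusted p = 0.0337) and every WD library lay above the control median. SLC38A2 and SLC6A12 were paired only through a list of genes cut off by p in these samples, so their presence on it is no independent evidence and they enter no count. The direction of SLC38A2 was the same in all 21 alternative settings, whereas 12 of the 21 kept it past the threshold: it was lost on leaving out CON2, CON3, CON5, CON13, WD7, WD8, WD9 or WD15 (log2 fold change 0.95 to 1.18, adjusted p 0.0639 to 0.178) and when TMM factors were left out (log2 fold change 1.30, adjusted p 0.918). SLC6A12, the betaine transporter, had 182 counts in all, with 1.72 to 19.1 CPM in controls and 1.42 to 3.75 CPM in WD (log2 fold change -1.19, SE 0.56, edgeR adjusted p = 0.531), and its log2 fold change was -0.59 without CON13 (adjusted p = 0.823).

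Among the WNK kinases, WNK2 had the smallest p of the 10 genes. WNK2 (ENSCDRG00005010400), the member known chiefly from brain, was 155.2, 216.4, 155.2, 187.7 and 210.4 CPM in CON2, CON3, CON4, CON5 and CON13, and 195.5, 141.3, 112.5, 123.9 and 95.8 CPM in WD6, WD7, WD8, WD9 and WD15. In 4 of 5 WD libraries it was below every control, with WD6 the exception. The mean was 185 ± 29.2 CPM in controls and 134 ± 38.3 CPM in WD, a fitted level 0.723 times that of controls (log2 fold change -0.47, SE 0.20, 95% interval -0.88 to -0.053). The unadjusted p was 0.0293 and the edgeR adjusted p 0.472, which placed WNK2 at rank 888 of 14432 by p and not past the threshold. Over the 22 alternative settings the log2 fold change stayed below 0, between -0.64 (without WD6, edgeR adjusted p = 0.112) and -0.37 (without WD15, adjusted p = 0.838).

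WNK1 (ENSCDRG00005022387), the most widely expressed member, in which intronic deletions cause familial hyperkalaemic hypertension, was 658.9, 405.5, 344.9, 458.6 and 401.7 CPM in CON2, CON3, CON4, CON5 and CON13 and 509.7, 385.9, 451.1, 409.4 and 569.6 CPM in WD6, WD7, WD8, WD9 and WD15. The 5 WD values all fell inside the control range, which CON2 extended upwards. The log2 fold change was 0.034 (SE 0.20, 95% interval -0.38 to 0.44, edgeR adjusted p = 0.975). In RefSeq's annotation of another camel assembly (mCamDro1.pat) RAD52 overlaps WNK1, and the extent of the overlap was not measured. Since the strand setting of the counting is not given in the sources used here, reads from the stretch shared by the 2 genes cannot be told apart. Long noncoding RNAs overlap SGK3 and STK39 in that annotation, and small RNA genes lie within WNK3.

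WNK3 (ENSCDRG00005009083), the member with the best known actions on neuronal chloride transporters, was 37.1, 29.3, 62.2, 42.9 and 33.5 CPM in CON2, CON3, CON4, CON5 and CON13, and 26.6, 56.4, 44.1, 50.2 and 32.3 CPM in WD6, WD7, WD8, WD9 and WD15. High and low libraries occurred in both groups, and the log2 fold change was 0.025 (SE 0.24, 95% interval -0.47 to 0.52, edgeR adjusted p = 0.986). WNK4 (ENSCDRG00005006646), known from the distal nephron, was 10.9, 6.86, 2.75, 11.7 and 10.8 CPM in CON2, CON3, CON4, CON5 and CON13, and 31.3, 5.48, 9.37, 6.22 and 15.002 CPM in WD6, WD7, WD8, WD9 and WD15. WD6 and WD15 lay above every control, and the other 3 WD values were inside the control range. The log2 fold change of WNK4 was 0.60 (SE 0.47, 95% interval -0.38 to 1.58, edgeR adjusted p = 0.750), and it was 0.099 without WD6, 0.31 without CON4 and 0.21 with RNA integrity as a covariate.

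**Figure D2:**
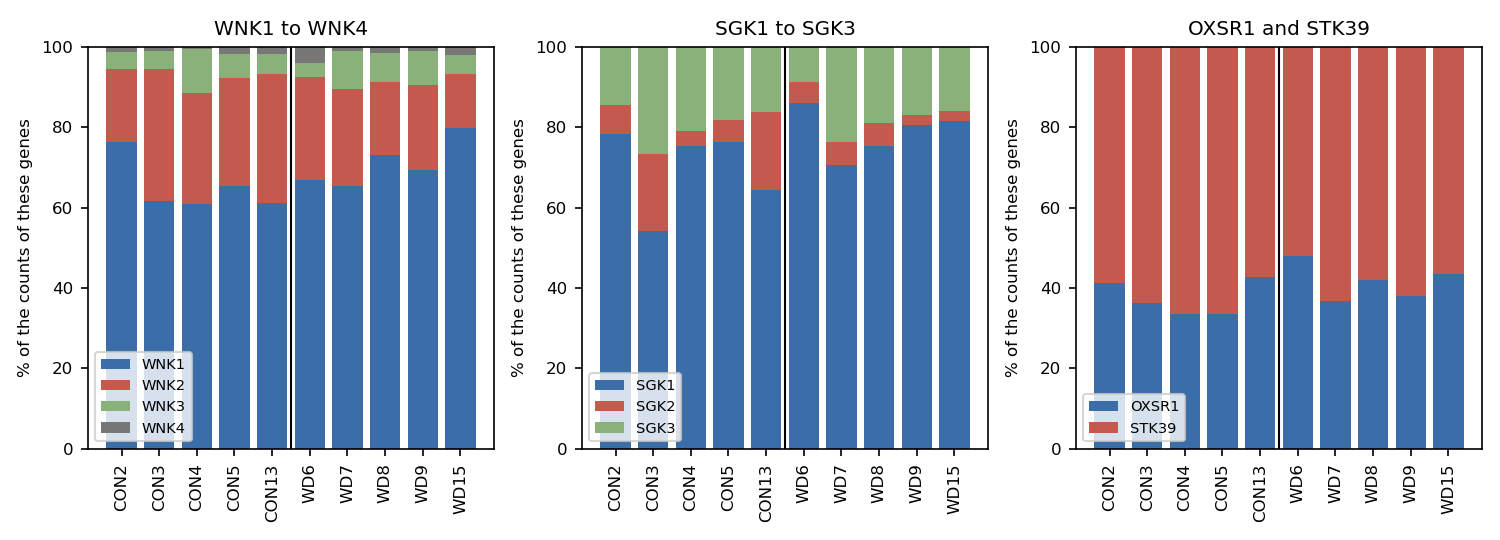
Share of each gene in the counts of its family (percent of the counts of the genes in the panel) for each library, with the 5 controls left of the black line and the 5 WD libraries right of it. WNK2 took 18.0% to 32.9% of WNK counts in controls and 13.4% to 25.6% in WD, and SGK1 took 54.2% to 78.4% of SGK counts in controls and 70.6% to 86.0% in WD.

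Shares within a family do not depend on the normalization factor of a library, although they also depend on transcript length and so say nothing of which gene is expressed most. WNK2 made up 27.4% ± 5.93 of the counts of the 4 WNK genes in controls and 20.5% ± 4.84 in WD (SD, n = 5 each), a difference of -6.98 percentage points. WNK1 made up 65.1% ± 6.56 and 71.0% ± 5.79. WNK3 made up 6.20% and 6.65%, and WNK4 1.22% and 1.94%, with the highest WNK4 share, 4.10%, in WD6. All of these ranges overlapped between the groups.

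OXSR1 was the least variable of the 10 genes in WD. OXSR1 (ENSCDRG00005017858), a direct substrate of WNK kinases, was 28.6, 21.1, 27.5, 25.2 and 25.1 CPM in CON2, CON3, CON4, CON5 and CON13, and 29.9, 31.9, 28.6, 30.3 and 31.7 CPM in WD6, WD7, WD8, WD9 and WD15. The groups touched at 1 point, where CON2 at 28.60 CPM lay above WD8 at 28.58 CPM, and each of the other WD libraries exceeded every control. The means were 25.5 ± 2.91 and 30.5 ± 1.36 CPM, with coefficients of variation of 11.4% and 4.46%. The WD values rest on 63 counts in WD6 and 152 to 351 in the other WD libraries. Sampling noise in such counts was not separated from this spread, so the low value is no measure of biological variation. The log2 fold change was 0.25 (SE 0.17, 95% interval -0.099 to 0.61, edgeR unadjusted p = 0.148, adjusted p = 0.694). An exact two-sided permutation test of mean log2 CPM, added after the data were seen, gave p = 0.0159 for OXSR1 and p = 0.0476 for WNK2, with adjusted values over all genes of 0.377 and 0.4998, against 9.53% of all genes at an unadjusted p under 0.05 (0.00794 is the smallest p that 5 against 5 allows).

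STK39 (ENSCDRG00005006583), the close relative of OXSR1, had nearly equal means of 43.0 ± 8.82 CPM in controls and 43.5 ± 8.91 CPM in WD. It was 40.6, 36.9, 54.4, 49.9 and 33.5 CPM in CON2, CON3, CON4, CON5 and CON13, and 32.3, 55.0, 39.3, 49.6 and 41.3 CPM in WD6, WD7, WD8, WD9 and WD15. Both groups spread over nearly the same range, and the log2 fold change was 0.0020 (SE 0.19, 95% interval -0.40 to 0.41, edgeR adjusted p = 0.998). OXSR1 made up 37.5% ± 4.35 of the counts of the pair in controls and 41.7% ± 4.55 in WD, with overlapping ranges of 33.5% to 42.9% and 36.7% to 48.1%.

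The partners and relatives of these kinases that could be tested gave no call. Of 17 listed WNK scaffolds, ubiquitin ligase parts and cotransporters, 3 were paired through complete sources and tested, with a median log2 fold change of -0.038. These were TSC22D1, NRBP1 and NRBP2, so no ubiquitin ligase part or cotransporter was among them. TSC22D1, a protein of the TSC22 family that binds WNK complexes through NRBP1, was 174 ± 42.6 CPM in controls and 147 ± 25.7 CPM in WD (log2 fold change -0.24, SE 0.19, edgeR adjusted p = 0.752), and -0.12 without CON4. SLC12A5, the neuronal potassium-chloride cotransporter KCC2 that WNK signalling restrains, was paired only through the list cut off by p, and was 80.7 ± 24.5 CPM in controls and 52.1 ± 14.1 CPM in WD (log2 fold change -0.61, SE 0.23, edgeR adjusted p = 0.400). All 20 other germinal centre kinases, the STE20-like group of OXSR1 and STK39, were tested, with 9 fitted above 0, 11 below and a median of -0.026.

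NRK, a kinase of this group known from embryonic tissue and placenta, had the smallest p, with 20.3 to 36.1 CPM in controls and 27.5 to 98.1 CPM in WD (log2 fold change 0.81, SE 0.29, edgeR adjusted p = 0.345), and its log2 fold change was 0.42 without WD15 (adjusted p = 0.835). MAP4K1, a kinase of blood cells, ranged from 61.4 to 1246 CPM in controls and from 44.2 to 527 CPM in WD (log2 fold change -1.34, SE 0.78, edgeR adjusted p = 0.658), and its log2 fold change was -0.69 without CON13 and -2.09 without WD6. MAP4K5, named after its values were seen because its groups did not overlap, was 21.5 to 34.2 CPM in controls and 35.6 to 39.0 CPM in WD (log2 fold change 0.25, edgeR adjusted p = 0.702).

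The SGK kinases differed in how far their values could be read. SGK1 (ENSCDRG00005021488), the member induced by corticosteroids, was 86.2, 27.4, 53.0, 58.7 and 23.9 CPM in CON2, CON3, CON4, CON5 and CON13, and 55.5, 44.6, 68.4, 51.2 and 97.1 CPM in WD6, WD7, WD8, WD9 and WD15. The control values spread widely, and the highest of them, in CON2, exceeded 4 of the 5 WD values. The means were 49.9 ± 25.4 and 63.4 ± 20.7 CPM, and the log2 fold change was 0.30 (SE 0.29, 95% interval -0.31 to 0.92, edgeR adjusted p = 0.816). This value was 0.56 without CON2, 0.16 without CON13, 0.13 without CON3 and 0.098 without WD15.

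SGK2 (ENSCDRG00005011945), best known from liver, kidney and pancreas, was 7.90, 9.70, 2.75, 4.10 and 7.17 CPM in CON2, CON3, CON4, CON5 and CON13, and 3.32, 3.70, 5.22, 1.73 and 3.13 CPM in WD6, WD7, WD8, WD9 and WD15. All 5 WD values lay below the control median, while CON4 and CON5 lay among them. It had the largest fitted difference of the 10 genes, a log2 fold change of -0.85 (SE 0.42, 95% interval -1.74 to 0.040, edgeR unadjusted p = 0.0600, adjusted p = 0.572). These values rest on 6 counts in CON13 and 7 in WD6.

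SGK3 (ENSCDRG00005020926), the member with a lipid-binding PX domain that places it on endosomes, was 15.8, 13.5, 14.7, 14.1 and 5.98 CPM in CON2, CON3, CON4, CON5 and CON13, and 5.69, 14.9, 17.2, 10.7 and 19.0 CPM in WD6, WD7, WD8, WD9 and WD15. The lowest value of each group came from its shallowest library, with 5 counts in CON13 and 12 in WD6. The log2 fold change was 0.028 (SE 0.28, 95% interval -0.57 to 0.62, edgeR adjusted p = 0.986). SGK1 took 69.8% ± 10.2 of the counts of the 3 SGK genes in controls and 78.8% ± 5.96 in WD, a difference of 9.01 percentage points with overlapping ranges.

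Genes that act on or near the SGKs gave no call. The 5 tested activators and steroid receptors all had fitted changes below 0 and none passed, with a median log2 fold change of -0.15. NR3C2, the mineralocorticoid receptor, was 18.0 ± 8.43 CPM in controls and 12.7 ± 3.92 CPM in WD (log2 fold change -0.35, SE 0.29, edgeR adjusted p = 0.780), with values of -0.15 without CON13 and -0.19 without WD6. Over its 21 alternative settings it ranged from -0.52 to -0.013. MTOR, the kinase of the complex that activates SGK1, was 115 ± 13.5 and 104 ± 6.29 CPM (log2 fold change -0.15, SE 0.15, edgeR adjusted p = 0.825). HSD11B2, which inactivates cortisol, had 41 counts in all and was not tested. Of 8 tested relatives and substrates 4 were fitted above 0 and 4 below, with a median of 0.020, and none passed. NDRG2, an SGK substrate that astrocytes express strongly, was paired only through the list cut off by p and was 298 ± 59.7 and 386 ± 59.9 CPM (log2 fold change 0.37, SE 0.18, edgeR adjusted p = 0.576). The astrocyte markers NFIA, ALDOC, ALDH1L1 and GJA1 were also fitted higher in WD, and all but NFIA were paired only through that same list. EMX2, which was not tested, had a lower mean in WD. The part of astrocytes in the value of NDRG2 was not tested.

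**Figure D3:**
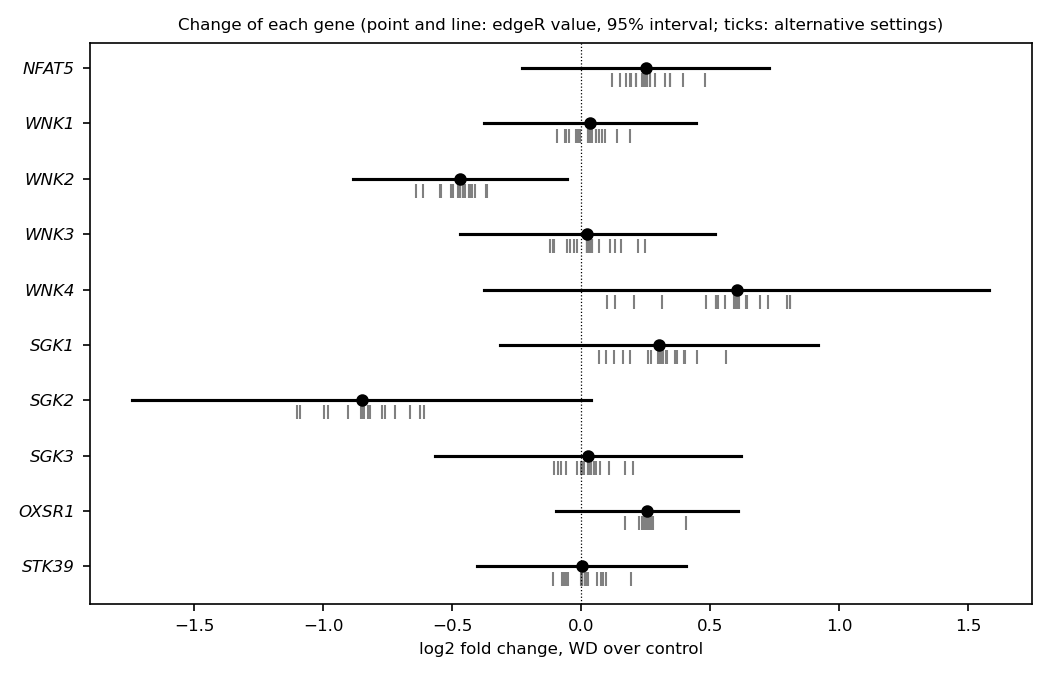
Log2 fold change (WD over control) of each of the 10 genes, with the edgeR value and its 95% interval as a point and line and the values under the alternative settings as grey ticks below it. The interval of WNK2 alone lies wholly below 0, and the ticks of NFAT5, WNK2, WNK4, SGK1, SGK2 and OXSR1 stay on 1 side of 0.

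Over all pathway lists together, 58 genes of the 62 paired through complete sources were tested. None passed edgeR's adjusted threshold, DESeq2 also called none, and 3 (5.17%, against 9.31% of all genes tested) had an unadjusted edgeR p under 0.05. The fitted change was above 0 for 30 and below for 28, with a median log2 fold change of 0.026 against 0.017 for all genes tested. The groups did not overlap in 2, MAP2K3 and MAP4K5, against 2.62% of all genes tested.

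**Figure D4:**
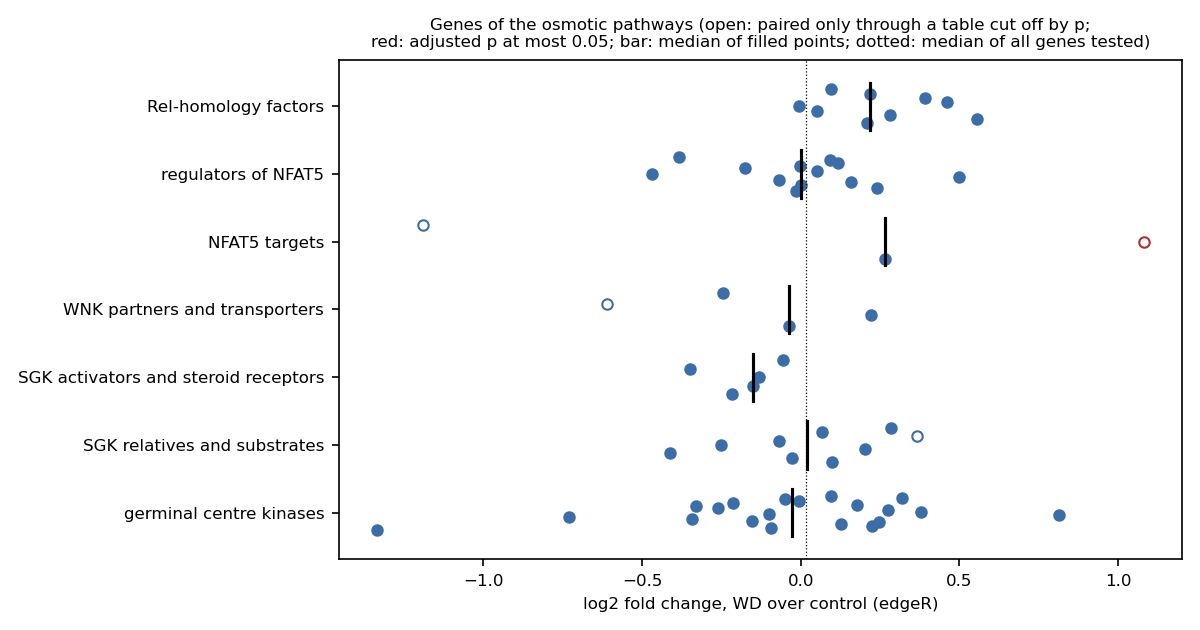
Log2 fold change (WD over control, edgeR) of each tested gene of the pathway lists, 1 row per list, with filled points for genes paired through complete sources, open points for those paired through a list cut off by p, red for an adjusted p at most 0.05, a bar at the median of the filled points and a dotted line at the median of all genes tested (0.017). Filled points lie on both sides of 0 in most lists, 8 of 9 Rel-homology factors lie above 0, and SLC38A2 at 1.08 is the 1 red point.

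The levels of some members followed the depth of the library. The log2 CPM of STK39 increased with the log10 of the counts outside the 5 dominant IDs (Pearson's r = 0.826 over the 10 libraries, permutation p = 0.00082, adjusted over 10 relations 0.0082, and Spearman's rho = 0.867, adjusted permutation p = 0.0139), and r was 0.815 without the 2 shallowest libraries. For WNK3, r was 0.697 (permutation p = 0.0144, adjusted 0.0721), rho 0.855 (adjusted permutation p = 0.0139) and r without the 2 libraries 0.861. For NFAT5, r was 0.734 (permutation p = 0.0248, adjusted 0.0826), rho 0.758 (adjusted permutation p = 0.0519) and r without them 0.704. SGK3 had r = 0.701 (permutation p = 0.0543, adjusted 0.136) with rho = 0.297 (adjusted permutation p = 0.455), and its r was -0.593 without CON13 and WD6, so that relation rested on them. SGK2 had r = -0.532 (permutation p = 0.121, adjusted 0.182) and rho = -0.648 (adjusted permutation p = 0.121), with r = -0.839 without the 2 libraries. The other 5 genes had adjusted permutation p-values of 0.182 or more for r and 0.132 or more for rho. With a term for the 5 deeper against the 5 shallower libraries, the log2 fold change of NFAT5 was 0.17, of WNK2 -0.43, of SGK2 -0.61, of WNK3 -0.11 and of STK39 -0.072, and none passed.

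**Figure D5:**
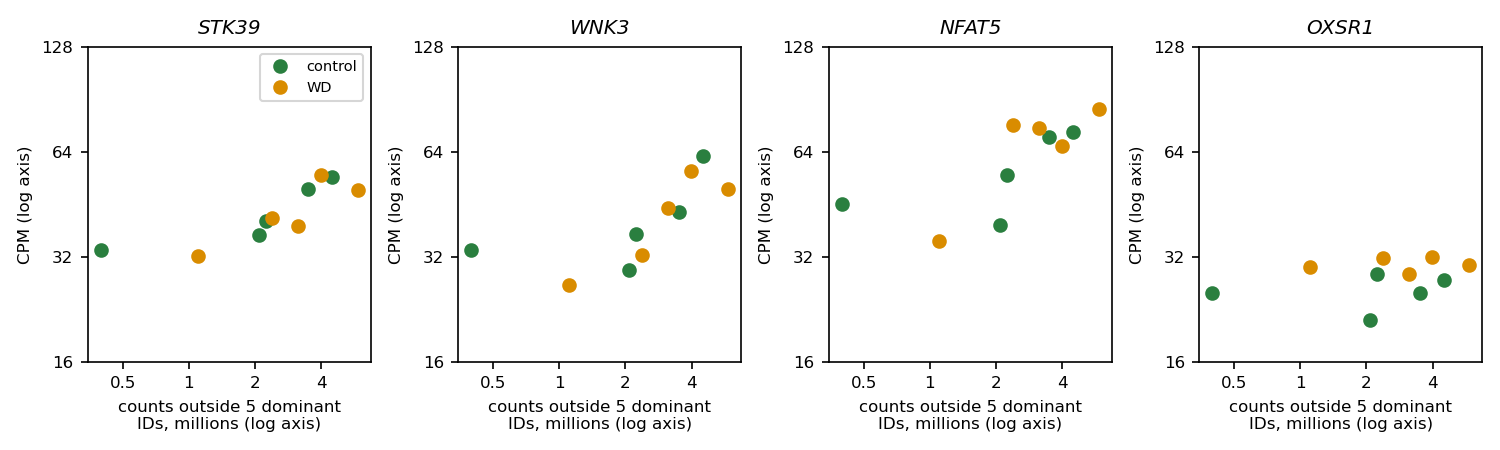
Level of STK39, WNK3, NFAT5 and OXSR1 (CPM, log axis) against the counts of the library outside the 5 dominant gene IDs (log axis), with controls in green and WD in orange. STK39, WNK3 and NFAT5 are higher in the deeper libraries of both groups, and OXSR1 lies between 21.1 and 31.9 CPM at every depth.

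Genes whose pattern over the 10 libraries was most like that of NFAT5, among 2266 genes paired through complete sources, were JMJD1C, a histone demethylase (r = 0.971, and 0.977 without CON13 and WD6), PIK3C2A, a lipid kinase (r = 0.971 and 0.976), and PTPRG, a receptor tyrosine phosphatase (r = 0.956 and 0.918). For WNK2 they were PI4KA, a lipid kinase (r = 0.946 and 0.928), PTPRF, a receptor tyrosine phosphatase (r = 0.943 and 0.933), and ELK1, a transcription factor (r = 0.932 and 0.921). These r values describe log2 CPM in shared libraries, were selected as the highest of many, and carry no test.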

How the data were processed

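Ribosome-depleted, stranded libraries from the SON of 5 control and 5 WD camels were sequenced as read pairs. The authors aligned the reads to Camdro2 with STAR and deposited raw counts per Ensembl gene ID from featureCounts, without pooling; the strand setting and the treatment of shared reads are not given in the sources used here. A second table deposited by the authors holds the same counts divided by DESeq2 size factors (a signal per gene), with a largest relative departure of 5.4e-10 from 1 factor per library; it served only for that alternative. The authors' tables of fold changes and p-values were not used, other than for pairing symbols with IDs. Of 22444 IDs, 4316 had a symbol, 3038 from complete lists, 122 only from a receptor list held in part and 1156 only from a list cut off by p. The last 2 sets enter no count.

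Counts were fitted with edgeR 4.0.16 (TMM, filterByExpr, robust quasi-likelihood F test) in R 4.3.3 over 14432 genes, with Benjamini-Hochberg adjustment and a threshold of 0.05. The 95% interval is the log2 fold change ± t times its SE, the SE being the log2 fold change divided by the square root of F. CPM are TMM-normalized. Likeness and the permutation of means used log2 CPM with a prior count of 2, and depth relations log2(CPM + 0.5). DESeq2 1.42.0, other scalings, filters and covariates (RNA integrity, fragment size, depth) and leaving out each library were alternatives, and depth permutations used 100000 resamples. The test was tried on simulated counts with known changes before use.

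Groups came from the labels. Libraries of 1 group differed by more than sampling noise (lowest chi-square per degree of freedom 8.03), so none was counted as a duplicate. The biological coefficient of variation was 0.285. The members and lists were chosen with earlier results of these data known. Named genes are all members, from each pathway list those past the threshold or else the 2 with the smallest p, and the 3 genes most like NFAT5 and most like the member with the smallest p. AKR1B1, CCL2, TNF, LTB, SLC6A12, MAP2K6, MAPK14, HSD11B2, MAP4K5 and the markers were named in addition. The values of 1 gene that this rule names are not reported here.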

Additional observations from a re-analysis of the deposited data

Results flagged for a closer look

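In each group of 5 libraries the most extreme value of each gene was compared with its nearest neighbour as a share of the whole range of the group on a log2 scale, 20 groups in all, and chance marks about 1 in 20 groups. NFAT5 in WD6 (35.6 CPM, nearest library 66.7 CPM) had a share of 0.720, above Dixon's critical value of 0.71. SGK3 in CON13 (5.98 CPM, nearest library 13.5 CPM) had a share of 0.834, and this value rests on 5 counts. WD6 and CON13 were the shallowest of the 10 libraries once the dominant gene IDs are set aside.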

How the results depend on the processing

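Of 217 alternative values of the 10 log2 fold changes, 192 kept their direction and side of the threshold, 25 changed sign and none passed the threshold. The sign changed for WNK1, WNK3, SGK3 and STK39, whose values lie near 0; the smallest adjusted p among these was 0.850, and the cause was not tested. With RNA integrity as a covariate, WNK1 was -0.092 and SGK3 -0.060; with the depth term, WNK3 was -0.11 and STK39 -0.072; without both CON13 and WD6, WNK1 was -0.057. Leaving out 1 library at a time, the log2 fold change ranged from -0.064 to 0.19 for WNK1, 0.12 to 0.40 for NFAT5, 0.099 to 0.81 for WNK4, 0.098 to 0.56 for SGK1, -0.12 to 0.22 for WNK3, -0.11 to 0.17 for SGK3, -0.11 to 0.085 for STK39, -0.64 to -0.37 for WNK2, -1.10 to -0.62 for SGK2 and 0.17 to 0.28 for OXSR1. The number of members whose groups did not overlap was 0, and 1 with DESeq2 size factors (OXSR1). Without 1 library it ranged from 0 to 1 (OXSR1 without CON2 or without WD8, WNK2 without WD6). The share over all genes was not counted in these settings, and groups with fewer libraries separate more easily, so no weight is placed on these counts. In edgeR's test, WNK2 lost an unadjusted p under 0.05 without CON3, CON5, CON13, WD8, WD9 or WD15 and with library totals only. With edgeR, SGK2 reached it without CON4, CON5 or WD8 and with RNA integrity as a covariate. With that covariate SGK1 was 0.069 and WNK4 0.21. Library totals in place of TMM factors moved the median log2 fold change of all genes from 0.017 to 0.16. The share differences ranged from -9.34 to -5.23 points for WNK2, 5.12 to 11.2 for SGK1 and 2.505 to 5.45 for OXSR1. The 58 pathway genes gave 0 calls with DESeq2 size factors, with library totals only and without any 1 library, and DESeq2's test gave 0 of 62; other settings were not counted for the lists. SGK2, SGK3 and WNK4 had under 10 counts in some library and were not tested with that minimum. No paired analysis was possible because the groups share no camel number.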
